A study of Rattus norvegicus with 5 samples.

Results

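The fibrous zone (FZ) of rat mandibular condylar cartilage was compared with femoral condylar cartilage (FCC) over every probe set of the array other than the controls, from 2 of the 5 arrays of the series. Of 31099 probe sets in the table, 57 were controls and 31042 were compared, and 20831 of these carry a single gene name, for 14221 genes. FZ is the surface layer of the mandibular condylar cartilage (MCC), the cartilage on the jaw joint, and FCC was sampled in its middle and deep zones, at the knee end of the thigh bone. Cells of each group were laser-captured from 7 µm sections of wild type, male Sprague-Dawley rats aged 5 weeks, with no treatment, and each group gave 1 array. The labels give 30 pooled sections for each group, whereas the study's methods give 60 for FZ, and the number of animals is not stated. RNA was amplified in 2 linear cycles before it was hybridized to a rat genome array. The 3 other arrays hold deeper layers of the MCC, which are the proliferative zone (PZ), the zone of mature chondrocytes (MZ) and the hypertrophic zone (HZ), and they are used here only to place FZ and FCC.

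Articular cartilage of the knee is hyaline: its chondrocytes sit in a matrix of type II, IX and XI collagen and aggrecan, and they descend from limb mesoderm. The jaw condyle forms later in development from cranial neural crest and carries a fibrous skin of flattened, fibroblast-like cells in type I collagen, under which a layer of dividing progenitors feeds the chondrocytes below. FZ against FCC is therefore a comparison of tissue type, depth and body position at once, and these cannot be told apart here.

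Every value is on the log2 scale relative to the median of the same probe set over the 5 arrays, so a value holds no expression level, and the levels of different genes cannot be compared. A difference is FZ minus FCC on that scale. With 1 array a side no difference has a replicate check or a test. Fewer cells of a type and less RNA per cell cannot be told apart in such samples. The only spread at hand is that between probe sets of the same gene: for 4526 genes it gave the difference an SD with a median of 0.26 and a 90th percentile of 0.72. The hybridization controls, transcripts added in equal amount to each sample, averaged 0.65 lower in FZ than in FCC over 18 probe sets. If both arrays are shifted to equal control means, every difference rises by 0.65 and so does the median of all probe sets, from 0.00. Differences are given as deposited, relative to a median of 0.00.

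The labels were first checked against cell type markers. Of 9 chondrocyte markers with a probe set, 8 were at least 1 lower in FZ than in FCC and 0 were higher (median −3.20). The exception was Acan, the core protein of aggrecan, at −0.45. Of 10 fibroblast markers, 4 were at least 1 higher in FZ and 0 were lower (median 0.68). The 4 were Tnmd, Scx, Dpt and Thy1. Col1a1, Col1a2, Col3a1, Col14a1 and Dcn, which fibroblasts and many other connective tissue cells use, differed by 0.51 to 0.74. The remaining marker, Pdgfra, went the other way, at −0.59.

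At a difference of at least 2, which is 4-fold, 257 probe sets (0.828% of those compared) were higher in FZ and 404 (1.30%) were lower. After the shift to equal control means the counts become 886 and 222, so the balance between the directions rests on the scaling. The middle of the distribution was narrow, with quartiles of −0.21 and 0.27 and 73.8% of probe sets within 0.5 of 0. The tails were unequal in the deposited values: 81 probe sets were at least 4 lower in FZ and 14 at least 4 higher, and 37 were at least 5 lower against 4 at least 5 higher. Averaged over the probe sets of each gene, 809 of 14221 genes (5.69%) were at least 1 higher in FZ and 602 (4.23%) were lower. After the shift 24.3% were higher and 2.02% lower, with a median over all genes of 0.66. The counts of list members below stand against these shares. The lists were written with earlier results of these data known, so these counts describe the members and test nothing. The ends of the range were −8.92 (Clec3a) and 7.21 (Crabp1).

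The other zones of the MCC were used to place FZ and FCC. They come from the same jaw cartilage as FZ, and FCC is the only femoral array. The placing therefore cannot show in which tissue a difference arose. FCC also had the widest spread of values of any array, with an SD of 0.59 against 0.32 in FZ. PZ was unlike MZ and HZ in genes often taken as steady. Its median was −0.53 for reference genes, against 0.00 in MZ and 0.05 in HZ. For ribosomal proteins it was −0.48, against 0.00 and 0.03. Placings that use PZ carry this limit. An array was counted as standing apart when it lay at least 2 above or below each of PZ, MZ and HZ. Among the 404 probe sets lower in FZ, FCC alone stood apart in 245 (60.6%), FZ alone in 5, both in 3 and neither in 151. FCC lay farther than FZ from the median of PZ, MZ and HZ in 363 of the 404. HZ was at least 2 below FCC in 318 of them, PZ in 297 and MZ in 280. Most of what was low in FZ was thus low in the whole MCC beside FCC. The 257 probe sets higher in FZ were placed differently: neither array stood apart in 202 (78.6%), FCC alone in 40 and FZ alone in 15. Their median value was 1.22 in FZ, 0.37 in PZ, −1.39 in FCC and 0.00 in both MZ and HZ, and PZ lay between FZ and FCC in 196 of them.

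**Figure D1:**
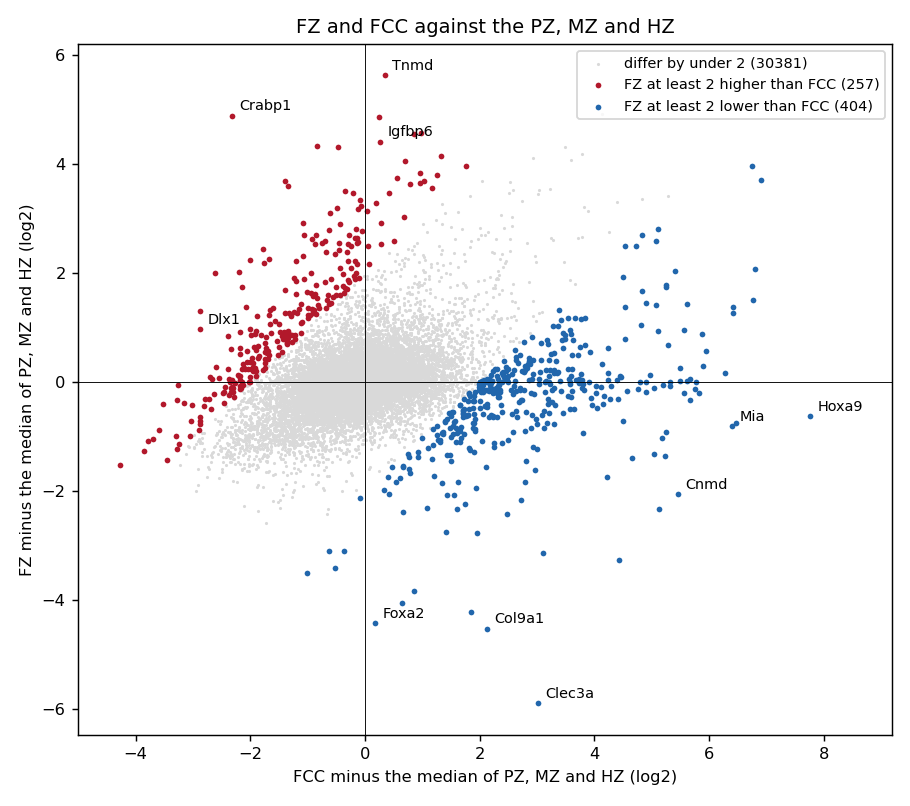
Each point is a probe set, with FCC (horizontal) and FZ (vertical) given as log2 differences from the median of PZ, MZ and HZ. The 404 probe sets lower in FZ (blue) spread along the horizontal axis, out to Hoxa9, with a few that fall along the vertical axis (Clec3a, Col9a1, Foxa2), whereas the 257 higher in FZ (red) lie along a diagonal band, with Tnmd, Crabp1 and Igfbp6 high on the vertical axis.

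The 5 probe sets lower in FZ and apart in FZ alone hold 4 named genes and 1 without a name. Col9a1, a chain of the type IX collagen that coats type II fibrils, was at −4.53 in FZ, 0.00 in PZ, 0.66 in MZ, −1.33 in HZ and 2.13 in FCC, a difference of −6.66. Col9a3, another chain, differed by −4.70. Col2a1, the main collagen of hyaline cartilage, differed by −4.68 in the probe set that stood apart. Foxa2, a transcription factor that works in maturing chondrocytes, was at −4.43 in FZ and between −1.37 and 0.17 in the other 4 arrays. In each of them FZ was the lowest of the 5 arrays, by at least 2 below each other MCC zone. FCC was the highest array for all 4. Clec3a and Matn3 stood apart on both sides. Clec3a, a cartilage lectin, was at −5.90 in FZ, 0.00 in PZ, 0.26 in MZ, −3.19 in HZ and 3.02 in FCC. Matn3, a matrilin that bridges collagen and aggrecan, was at −3.27 in FZ, 0.00 in PZ, 1.11 in MZ, 0.00 in HZ and 4.44 in FCC, a difference of −7.71.

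**Figure D2:**
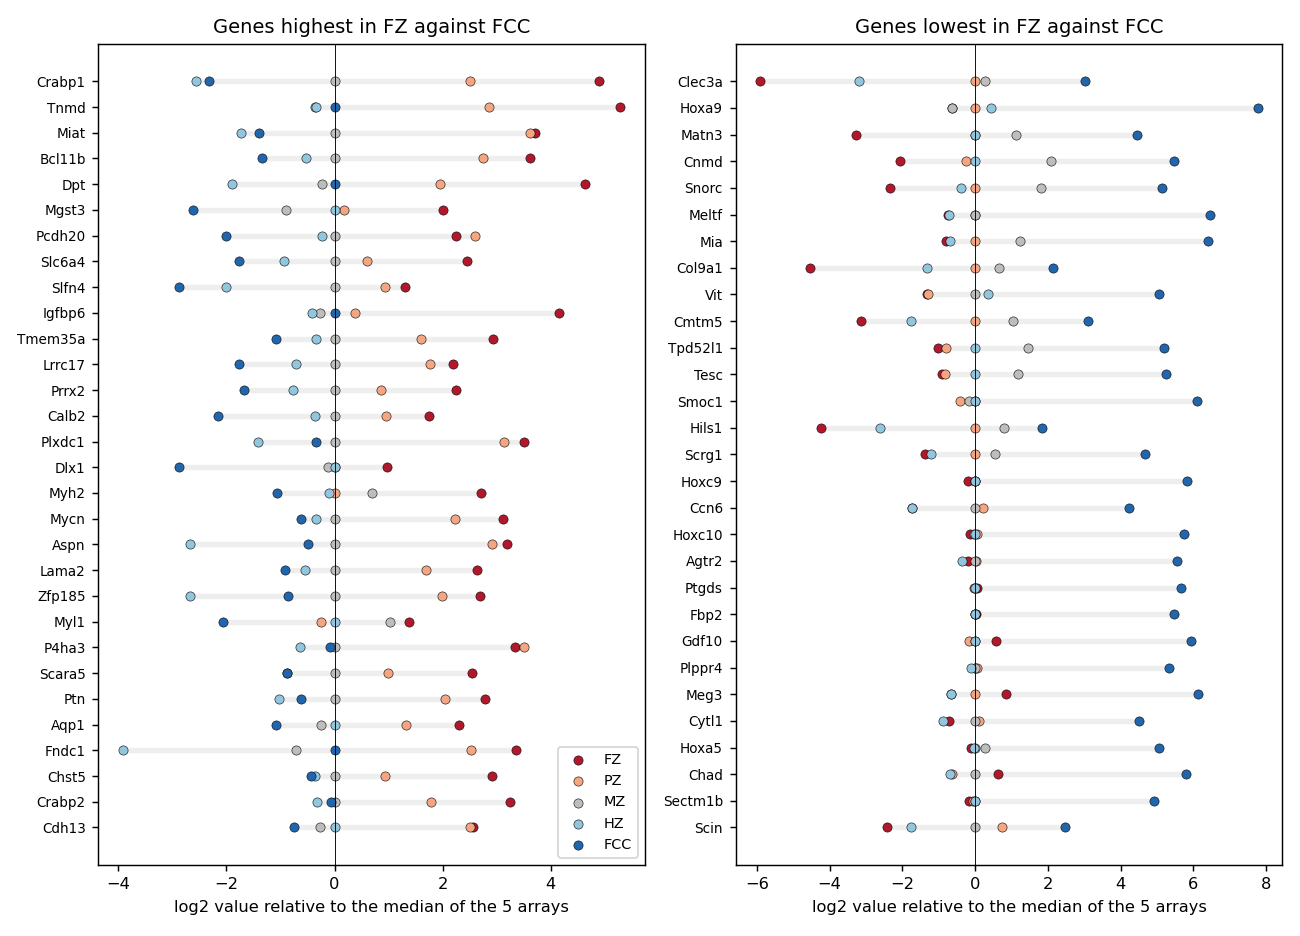
The log2 value relative to the median of the 5 arrays is drawn for genes among the 30 with the highest and the 30 with the lowest difference between FZ (dark red) and FCC (dark blue), with PZ, MZ and HZ between them in lighter colours. On the right FCC is detached from the other 4 arrays for most genes, with values up to 7.77, while on the left PZ follows FZ for many genes.

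Cartilage collagens were lower in FZ as a group. Of 8 genes, 7 were at least 1 lower and 0 higher, against a background of 4.23% of all genes at least 1 lower, and the median was −2.66, against 0.02 over all 14221 genes. All 7 were also at least 2 lower. FZ lay farther from the other MCC zones than FCC did in all 7. Col9a2 was at −2.75 in FZ, 0.00 in PZ, 0.37 in MZ, −1.05 in HZ and 1.41 in FCC. Col10a1, the collagen of hypertrophic cartilage, was at −2.73 in FZ, −1.61 in PZ, 0.62 in MZ, 0.37 in HZ and 0.00 in FCC, so it marked FZ and PZ against the other 3 arrays. Col27a1 and Col11a2 differed by −2.21 and −2.06. The probe sets of 2 members disagreed. Those of Col2a1 differed by −4.68, −3.62 and 0.55, and those of Col11a1 by −1.84, −0.70 and 1.16.

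The small secreted proteins of chondrocytes showed a larger difference with another placing. Of 14 genes, 13 were at least 1 lower in FZ, against 4.23% of all genes, and 0 higher, with a median of −5.50. FCC lay farther from the other zones in 11 of the 13. Members such as Cnmd, Mia, Scrg1, Ccn6 and Gdf10 were already among the study's strongest differences from FCC, so the count is no independent result. Cnmd (chondromodulin), which keeps vessels out of cartilage, was at −2.06 in FZ, −0.25 in PZ, 2.08 in MZ, 0.00 in HZ and 5.46 in FCC. Scrg1 differed by −6.05, Ccn6, a member of the CCN family, by −5.96 and Cytl1, a cytokine-like protein, by −5.22. Mia, made by chondrocytes and melanoma cells, differed by −7.21 with FZ at −0.81. Gdf10, a growth factor of the BMP family, was 0.57 in FZ and 5.94 in FCC, a difference of −5.37 with FCC alone apart from the other zones. Frzb, a Wnt antagonist of articular cartilage, was of the FZ kind: it was at −1.83 in FZ in both probe sets and at 0.00 and 0.55 in FCC. In promoter windows of the gene starts (RefSeq, GRCr8, 300 bases, both strands), the core letters bound by SOX factors (ACAATG) lay in 0 of 6 matched cartilage collagens and 1 of 11 matched members of this list, Frzb, against 13.03% of all promoters.

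Proteoglycans and their link proteins were mixed. Of 11 genes, 5 were at least 1 lower in FZ and 1 was higher, with a median of −0.45. After the shift to equal control means the median was 0.20, against 0.66 over all genes. Snorc, a small transmembrane proteoglycan of chondrocytes, differed by −7.46 and Chad, which binds chondrocytes to collagen, by −5.15. Hapln1, which ties aggrecan to hyaluronan, was lower in each of 3 probe sets, with differences of −3.66 to −2.77, and its lowest array was HZ. Vcan (versican), the large proteoglycan of loose connective tissue, was the member that was higher, at 1.61 over 5 probe sets. Acan was at 0.37 and 0.45 in FZ and at 1.08 and 0.65 in FCC, so the 2 aggrecan probe sets gave no difference of 1, although the collagens around it did. Of 12 matrilins and other matrix proteins, 6 were lower and 0 higher (median −1.21). Comp, which organizes collagen fibrils, was at −2.33 in FZ and −2.63 in HZ, against 1.60 in FCC. Matn1 differed by −1.80 and Vit (vitrin) by −6.36, whereas Matn2, a matrilin of fibrous tissues, differed by 0.41.

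Of 14 transcription factors of chondrocytes, 3 were at least 1 lower, against 4.23% of all genes, and 1 was higher, Runx1, with 1.06. Beside Foxa2, the lower members were Creb5, a factor of superficial articular chondrocytes, which differed by −3.67 to −1.49 in 5 probe sets, and Erg, with −2.52 and −0.36 in its 2 probe sets. Sox6, a partner of the master regulator Sox9, differed by 0.13. Sox9, Sox5 and Runx2 were not analysed here. Genes of hypertrophy and mineralization were lower in 4 of 16 and higher in 1, against 4.23% and 5.69% of all genes, yet their median was 0.26. After the shift 3 were lower and 7 higher, against 2.02% and 24.3% of all genes, with a median of 0.90. Ihh, the hedgehog ligand of prehypertrophic cells, was at −1.22 in FZ, −0.45 in PZ, 1.23 in MZ, 0.00 in HZ and 1.81 in FCC. Ankh, a pyrophosphate transporter, differed by −1.67 and Mgp, which inhibits mineralization, by −1.10. Phex, an endopeptidase of bone cells, was 1.48 higher in FZ, although it was lower there than in MZ and HZ.

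Genes of body position separated FCC from all zones of the MCC. Hox genes set the identity of segments along the trunk and limbs and are silent in the cranial neural crest of the jaw. Of 23 Hox genes, 10 were at least 1 lower in FZ, against 4.23% of all genes, and 0 higher. Their median was −0.68 (−0.03 after the shift, against 0.66 over all genes). FCC lay farther from the other zones in all 10 lower genes. Hoxa9 was at −0.63 in FZ, 0.00 in PZ, −0.65 in MZ, 0.43 in HZ and 7.77 in FCC, a difference of −8.39. Hoxc9 differed by −6.01 and −5.77 in 2 probe sets and Hoxc10 by −5.89. The 4 clusters were not alike: 4 of 5 genes of the A cluster and 5 of 5 of the C cluster were lower, against 1 of 7 of the D cluster (Hoxd8, −2.72) and 0 of 6 of the B cluster. Within the A cluster, Hoxa5, Hoxa9 and Hoxa10 differed by −8.39 to −4.88, whereas Hoxa7, which lies between them, differed by −1.30 and Hoxa11 by −0.30. A value near 0 does not show that a gene is silent, since the values hold no levels.

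Of 20 genes of limb patterning, 4 were lower in FZ, against the same 4.23%, and 0 higher, and the other 16 differed by no more than 0.50 in either direction. The 4 were Tbx18 (−4.25), Meis2 (−3.77), Tbx4, which marks the hind limb (−2.82), and Meis1 (−2.36), and FCC stood apart in each. Genes of craniofacial patterning went the other way: 6 of 17 were at least 1 higher, against 5.69% of all genes, and 0 were lower. Dlx1, which patterns the jaw arches, was at 0.97 in FZ, 0.00 in PZ, −0.12 in MZ, 0.00 in HZ and −2.88 in FCC. Pax9 differed by 1.92, Dlx3 by 1.13 and Dlx5 by 1.07. Bcl11b, a zinc-finger factor, was 4.95 and 4.78 higher in 2 probe sets and 0.87 in the third, and Prrx2 was 3.93 higher in the first of its probe sets and 0.00 in the other. These last 2 genes were graded within the jaw cartilage: Bcl11b was at 3.61 in FZ, 2.75 in PZ, 0.00 in MZ, −0.52 in HZ and −1.35 in FCC, unlike the Dlx genes.

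**Figure D3:**
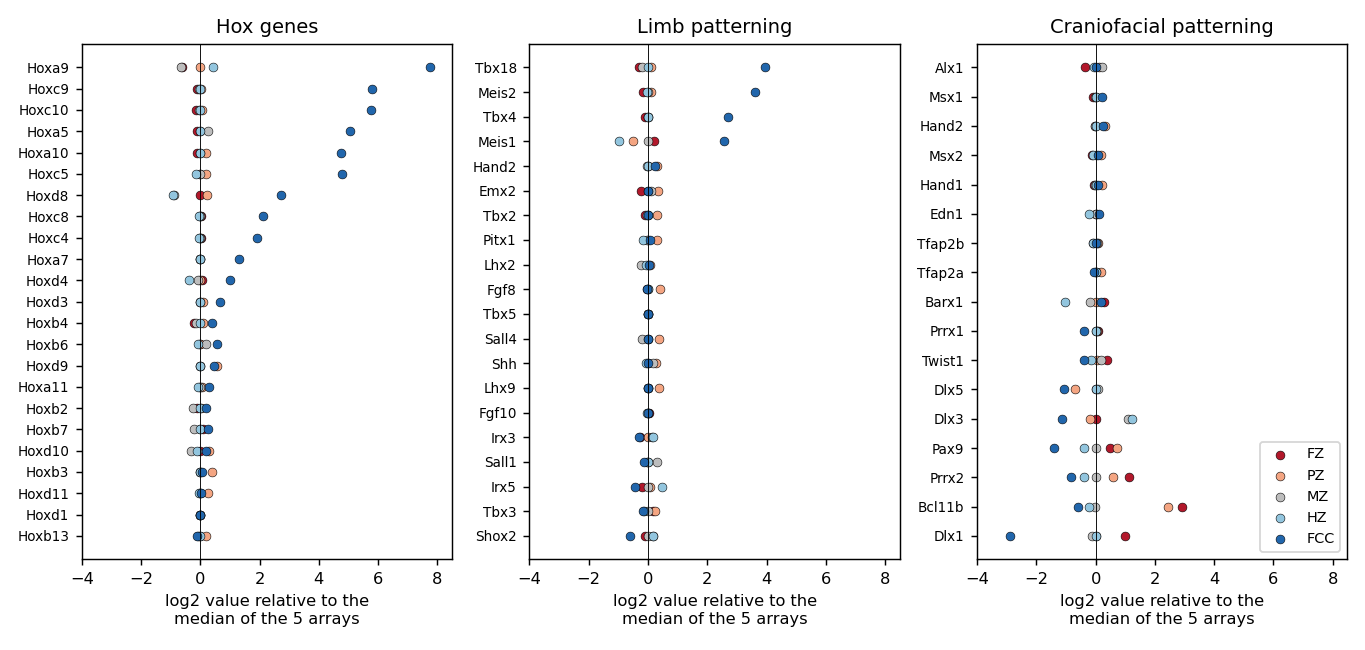
Members of 3 patterning lists are drawn on the 5 arrays as log2 values relative to their median (mean of the probe sets of a gene). For 10 of 23 Hox genes and 4 of 20 limb genes the FCC point is detached to the right with the 4 MCC zones close to 0, and for Dlx1 it is detached to the left, at −2.88.

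On the fibrous side, tendon and ligament genes were higher in 7 of 18 and lower in 2, against 5.69% and 4.23% of all genes, with a median of 0.61. Of the 7, FZ lay farther from the other zones than FCC did in 6. Tnmd (tenomodulin), the tendon relative of Cnmd, was at 5.29 in FZ, 2.86 in PZ, −0.37 in MZ, −0.35 in HZ and 0.00 in FCC. Dpt (dermatopontin), a collagen-binding protein of dermis and tendon, was at 4.62 in FZ, 1.96 in PZ and 0.00 in FCC, with a second probe set 3.72 higher. Scx, the transcription factor of tendon progenitors, was at 1.04 in FZ, 0.68 in PZ, 0.00 in MZ, −0.31 in HZ and −0.94 in FCC. C1qtnf3 differed by 2.88, and tenascin C was also among the 7. The 2 lower members were Comp, named above, and Egr1 (−2.28), an immediate-early factor. Cnmd and Tnmd, the 2 members of their small family, thus lay 12.8 apart in their differences, at −7.52 and 5.29.

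Collagens of fibrous tissue, both fibril-forming and other types, did not show a contrast of that size. Of 16 fibrous collagens, 3 were at least 1 higher and 0 lower, with a median of 0.58, and 14 are higher after the shift to equal control means, against 24.3% of all genes. Both chains of type I collagen, the material that names the zone, differed by 0.51 and 0.61, and Col3a1 differed by 0.74. The 3 that passed 1 were minor fibril and network collagens, Col5a3 (2.06), Col5a1 (2.40 and 1.61 in its 2 probe sets) and Col8a1 (1.91). Among 18 genes of collagen processing, P4ha3, a prolyl hydroxylase subunit, was at 3.34 in FZ, 3.51 in PZ, 0.00 in MZ, −0.63 in HZ and −0.08 in FCC. The crosslinking enzyme Lox was 2.78 and 1.48 higher in FZ, yet FZ was at −0.19 in the first probe set, level with the other MCC zones, and FCC at −2.97. Loxl1 was 1.63 higher in FZ, which was the highest array, and Loxl3 differed by −2.48.

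Small leucine-rich proteoglycans, which space collagen fibrils, were lower in 5 of 11 and higher in 1, with a median of −0.40. After the shift the median was 0.25, against 0.66 over all genes. Then 2 remained at least 1 lower, against 2.02% of all genes. Aspn (asporin) was at 3.20 in FZ, 2.91 in PZ, 0.00 in MZ, −2.68 in HZ and −0.49 in FCC. Prelp was above the other zones on both sides, with 1.54 in FZ and 3.67 in FCC against −2.73 in HZ. Ogn (osteoglycin) was lower in all 4 probe sets, with differences of −1.30 to −0.76, and Dcn, Lum and Bgn differed by 0.62, 0.47 and 0.13. Of 20 genes of elastic fibres and microfibrils, 5 were higher and 2 lower. After the shift 9 were higher and 0 lower, against 24.3% and 2.02% of all genes. Mfap5, a microfibril glycoprotein, was at 3.04 in FZ, 0.83 in PZ, −1.43 in MZ, −0.43 in HZ and 0.00 in FCC, and Fbn2, a fibrillin, was at 2.47 in FZ and between −0.48 and 0.04 elsewhere. Eln and Fbn1, the main proteins of the elastic fibre, differed by −0.59 and −0.29.

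Surface and matrix genes of fibroblasts were at least 1 higher in 11 of 22 and lower in 2, against 5.69% and 4.23% of all genes, with a median of 0.93. Postn (periostin) was at 1.06 in FZ, 0.98 in PZ, 0.00 in MZ, −1.77 in HZ and −1.66 in FCC. Cd44, the hyaluronan receptor, was 2.83 and 1.92 higher, Thy1 2.08 and 1.77 higher, and Pdgfrb, a receptor for platelet-derived growth factor, 0.96 to 2.58 higher in 3 probe sets. Fap, a protease named for activated fibroblasts, went the other way, at −0.28 in FZ and 3.60 in FCC, where it stood apart. Islr, another mesenchymal gene, did so as well (−2.72).

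Genes shared by FZ and FCC were few. Both arrays lay at least 2 above each of PZ, MZ and HZ in 8 probe sets of 6 named genes, and both lay at least 2 below them in 0. Chosen after their values were seen, they include Mfap4, a microfibril protein, at 3.29 in FZ and 2.81 in FCC, Col14a1, a collagen that binds fibril surfaces, at 2.96 and 2.56, and a probe set of Igf2, a growth factor, at 2.61 and 3.69. The other 3 probe sets of Igf2 lay between −0.09 and 0.30 on every array.

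Retinoic acid carries positional and differentiation signals, and Crabp1 and Crabp2 bind it in the cytoplasm. Crabp1 was at 4.89 in FZ, 2.51 in PZ, 0.00 in MZ, −2.56 in HZ and −2.32 in FCC, the highest difference of any probe set. Crabp2 was at 3.24 in FZ, 1.78 in PZ, 0.00 in MZ, −0.33 in HZ and −0.07 in FCC. Of 21 genes of the pathway these 2 were at least 1 higher and 2 were lower, against 5.69% and 4.23% of all genes. Rarres2 (−1.76) and Rbp4 (−1.27), which are a chemokine-like adipokine and the carrier of retinol in blood, were the 2 lower ones. The synthesis enzymes Aldh1a1, Aldh1a2 and Aldh1a3 differed by −0.16 to 0.37, the receptors by −0.31 to 0.21, and the degrading enzymes Cyp26a1 and Cyp26b1 by −0.29 and 0.07.

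In the insulin-like growth factor system, 2 of 22 genes were higher and 1 was lower, shares near the 5.69% and 4.23% of all genes. Igfbp6, which prefers IGF2 among its ligands, was at 4.15 in FZ, 0.38 in PZ, −0.27 in MZ, −0.41 in HZ and 0.00 in FCC, with a second probe set 3.60 higher. Igfbp3 was 2.80 and 1.20 higher, and here FCC was the lowest array. Igfbp5 differed by −0.68 and Pappa2, a protease that cuts binding proteins, by −1.40. Among 16 imprinted genes, Meg3, a long non-coding RNA expressed from the maternal chromosome, differed by −5.26 and −4.18, while Dlk1, its paternally expressed neighbour, differed by −1.26. Mest and Nnat were 1.62 and 1.61 higher in FZ. Cdkn1c, an inhibitor of the cell cycle, differed by −1.93.

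Of 45 genes of TGF-beta and BMP signalling, 4 were higher and 4 lower, against 5.69% and 4.23% of all genes, and after the shift 14 and 2, against 24.3% and 2.02%. Beside Gdf10, the lower ones were Bmp7 (−1.58) and the BMP antagonists Chrdl1 (−1.36) and Chrdl2 (−2.88). Inhba, a subunit of activin, was 2.18 and 1.71 higher in FZ, Nbl1, an antagonist, 1.57 higher, Bmp3 1.48 higher and Tgfbi, a matrix protein induced by TGF-beta, 1.33 higher. Of 39 Wnt genes, 4 were higher and 3 lower, and 12 were higher after the shift, against 24.3% of all genes. The 3 lower ones were secreted antagonists, Frzb, Wif1 (−1.53) and Sfrp5 (−1.23), and the 4 higher ones were Tcf7 (2.30), a nuclear effector, the receptors Fzd1 (1.60) and Lrp4 (1.28), and the ligand Wnt9a (1.31). Other antagonists were near 0 or above it, among them Sfrp1 (0.34), Sfrp2 (0.75) and Dkk3 (0.41). Of 14 hedgehog and PTHrP genes, 4 were lower and 0 higher, with a median of −0.46. Beside Ihh these were Gli2, Boc and Hhip, at −1.42 to −1.56, and FCC lay farther from the other zones in all 4. After the shift the median was 0.19, against 0.66 over all genes, and 1 remained lower, against 2.02% of all genes. In the FGF family, 4 of 22 were lower, led by Fgf13 (−4.11), an intracellular member, and Fgfrl1 (−2.41), a receptor without a kinase.

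Cell cycle genes were higher in FZ. Of 43 genes, 27 were at least 1 higher in FZ and 0 lower, against 5.69% of all genes, with a median of 1.18 and a range of 0.06 to 2.18. FCC lay farther from the other zones in 26 of the 27, and the median of the whole list was 0.10 in FZ, −0.10 in PZ, 0.00 in MZ, 0.19 in HZ and −1.03 in FCC. FZ lay between MZ and HZ in this measure, and FCC was the low array. Ccna2 (cyclin A) was at 0.26 in FZ, −0.12 in PZ, 0.00 in MZ, 0.48 in HZ and −1.91 in FCC. Cdk1, the kinase that drives mitosis, differed by 1.79, Top2a by 1.77 and Mki67, a marker of dividing cells, by 1.14. Among genes that act in DNA replication, Mcm5 and Mcm6 differed by 1.33 and 1.28, Pcna by 0.67, Mcm2 by 0.71, Mcm3 by 0.77 and Mcm4 by 0.31. The inhibitors Cdkn1b and Cdkn2c differed by 0.06 and 0.26. Leukocyte markers were low in FCC too, and also in PZ. Of 17 pan-leukocyte genes, 6 were at least 1 higher in FZ and 1 lower. Their medians were 0.00 in FZ, −0.82 in PZ, 0.79 in MZ, 1.11 in HZ and −0.80 in FCC. Their part in the cell cycle difference was not tested.

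The promoters of the cell cycle genes are shown because these genes moved together and share short sequence elements, the CCAAT box (CCAAT) and the cell cycle homology region, or CHR (TTTGAA). Promoter windows of 300 bases, from 250 before to 50 after the gene start, were matched in RefSeq (GRCr8) for 35 of the 43 genes and searched on both strands. A CCAAT box lay in 27 of 35 (77.1%), against 37.7% of all 27457 promoters, and a CHR in 18 of 35 (51.4%), against 18.1%. Among the members at least 1 higher in FZ these shares were 18 and 13 of 22. The stretches below run from 140 bases before the start to the last base before it, 5′ to 3′ on the strand of the gene, with CCAAT boxes (or ATTGG, the same box on the other strand) and CHR elements (or TTCAAA) in capitals. The elements do not overlap in them. They belong to Ccnb2 (cyclin B2, minus strand, chr8:79981659-79981798), Cdk1 (plus strand, chr20:19265153-19265292) and Cks2, a subunit of the cyclin-dependent kinase complex (minus strand, chr17:13727520-13727659).
Ccnb2: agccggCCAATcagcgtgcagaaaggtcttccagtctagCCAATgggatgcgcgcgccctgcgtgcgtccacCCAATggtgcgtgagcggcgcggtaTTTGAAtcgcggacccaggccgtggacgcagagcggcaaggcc
Cdk1: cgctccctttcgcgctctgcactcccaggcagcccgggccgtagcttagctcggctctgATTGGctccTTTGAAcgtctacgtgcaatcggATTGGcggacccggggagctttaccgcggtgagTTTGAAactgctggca
Cks2: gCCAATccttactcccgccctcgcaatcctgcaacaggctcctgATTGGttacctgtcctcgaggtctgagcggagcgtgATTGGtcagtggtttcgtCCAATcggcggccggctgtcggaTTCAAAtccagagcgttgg

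Ccnb2 was at 0.39 in FZ, 0.00 in PZ, −0.22 in MZ, 0.19 in HZ and −1.32 in FCC, and Cks2 at 0.73, 0.35, 0.00, 0.00 and −1.20 in the same order. A match of letters is a description of these windows and does not show that a factor binds there.

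Cholesterol synthesis was higher in FZ with the opposite placing. Of 18 genes, 12 were at least 1 higher, against 5.69% of all genes, and 0 lower, with a median of 1.23, and FZ lay farther from the other zones in 9 of the 12. The median of the list was 0.95 in FZ, 0.12 in PZ, 0.00 in MZ, −0.35 in HZ and −0.19 in FCC. Idi1, which isomerizes isopentenyl diphosphate, was at 1.34 in FZ, −0.25 in PZ, 0.17 in MZ, 0.00 in HZ and −0.93 in FCC, with a second probe set 1.56 higher. Fdps, which makes farnesyl diphosphate, differed by 1.85, Dhcr7, the last step, by 1.75 and Cyp51, a lanosterol demethylase, by 2.05 and 1.53. Hsd17b7, a reductase of sterol intermediates, was 2.25 and 1.38 higher. Lss, which closes the ring to lanosterol, differed by 0.22 and Lbr, which also anchors the nuclear lamina, by 0.16. Hmgcs1 was not analysed here.

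The sterol regulatory element searched (TCACNCCAC, both strands) was in 0 of 15 matched promoter windows of these genes and in 1.13% of all promoters, and the CCAAT box was in 12 of 15 (80.0%), against 37.7%. A window without the letters says nothing of the factor. The last 100 bases before the start are shown for 2 of the members at least 1 higher that hold a pair of CCAAT boxes there, in capitals as ATTGG: Idi1 (minus strand, chr17:66547525-66547624) and Hsd17b7 (minus strand, chr13:84722755-84722854).
Idi1: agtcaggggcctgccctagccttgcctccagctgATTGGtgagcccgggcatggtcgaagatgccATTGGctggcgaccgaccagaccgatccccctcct
Hsd17b7: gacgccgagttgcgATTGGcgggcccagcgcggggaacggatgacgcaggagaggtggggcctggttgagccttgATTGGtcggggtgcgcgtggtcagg

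The actin cytoskeleton was higher in FZ in 14 of 30 genes, against 5.69% of all genes, and lower in 0, with a median of 0.96. FCC lay farther from the other zones in 12 of the 14. Csrp2, a LIM protein of smooth muscle and stellate cells, was at 1.22 in FZ, 0.28 in PZ, 0.00 in MZ, −0.37 in HZ and −1.89 in FCC. Tagln, a calponin relative, differed by 2.53, Myl9, a myosin light chain, by 2.33, Flna, which crosslinks actin, by 1.59 and Vcl (vinculin), a protein of focal adhesions, by 1.30. Other genes of smooth muscle differed by less than 1, with Myh11 at −0.31, Cnn1 at −0.30, Lmod1 at −0.04 and Acta2 at 0.48. Tagln is a smooth muscle marker too, and its 2.53 was the highest among 14 pericyte and vascular smooth muscle genes. The actin control probe sets of the array, which read the transcript at its 3′ end, middle and 5′ end, were 1.88, 1.57 and 0.78 higher in FZ. The size of the actin difference thus varied with the end read. The 5′ minus 3′ value for actin was 0.14 in FZ and 1.24 in FCC, and for GAPDH −0.07 and −0.21. The cause of this gap was not tested. Integrins, which tie this skeleton to the matrix, were higher in 4 of 15 and lower in 0, and the 4 were Itgb3 (1.62), Itga8 (2.74 and 0.00 in its 2 probe sets), Itgb5 (1.15) and Itga11 (1.08), a collagen receptor of fibroblasts.

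A CArG box, the element bound by serum response factor, was in 3 of 23 matched promoter windows of the actin list, against 1.64% of all promoters. Cnn2 and Fhl2 were the 2 members with this box that were at least 1 higher in FZ, and 80 bases around it are shown with the box in capitals, from 120 to 41 before the start. They lie on the minus strand, at chr7:10370353-10370432 for Cnn2 and chr9:52954581-52954660 for Fhl2.
Cnn2: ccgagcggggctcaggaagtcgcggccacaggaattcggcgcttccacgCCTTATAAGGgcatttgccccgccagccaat
Fhl2: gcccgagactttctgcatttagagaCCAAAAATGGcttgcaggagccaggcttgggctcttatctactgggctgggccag

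Cnn2, a calponin, differed by 1.48 and Fhl2, a LIM protein that shuttles to the nucleus, by 1.68 and 2.81.

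**Figure D4:**
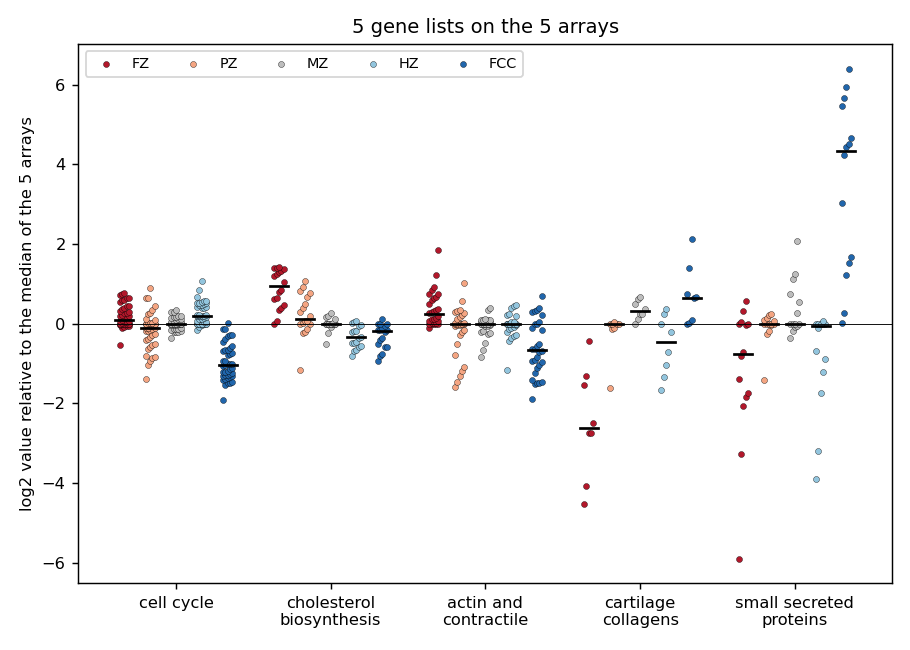
Members of 5 gene lists are drawn on each array as log2 values relative to the median of the 5 arrays, with black bars for the median of a list. FCC is the low array for the cell cycle (−1.03) and for actin and contractile genes (−0.67), FZ is the high array for cholesterol synthesis (0.95) and the low array for cartilage collagens (−2.61), and FCC is the high array for the small secreted proteins (4.33).

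Adhesion and guidance genes held several of the single highest differences. Pcdh20, a protocadherin, was at 2.25 in FZ, 2.60 in PZ, 0.00 in MZ, −0.23 in HZ and −2.01 in FCC, and Cdh13, a cadherin without a cytoplasmic tail, was 2.69 to 3.31 higher in 3 probe sets. Cldn11, a claudin, was at 3.20 in FZ and no higher than 0.43 elsewhere, although its other probe set did not differ (0.00). Of 24 cadherins, claudins and connexins, 6 were higher and 2 lower. Of 43 guidance genes, 8 were higher and 2 lower, and 17 were higher after the shift, against 24.3% of all genes. Plxdc1, a plexin-domain receptor, was at 3.51 in FZ, 3.13 in PZ, 0.00 in MZ, −1.41 in HZ and −0.35 in FCC, and Ephb3 at 2.39, 2.01, −1.17, −2.64 and 0.00 in that order. Robo2, a receptor for Slit proteins, was low in FCC alone, 3.20 and 2.23 below FZ in 2 probe sets and 0.45 in the third. Sema3e, a semaphorin, differed by −2.81. Ntrk2, a neurotrophin receptor, was 2.82 and 3.11 higher in FZ in 2 of its 5 probe sets and 0.03 to 0.56 higher in the others.

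Matrix metalloproteinases, ADAMTS enzymes and inhibitors, taken as 1 list, were at least 1 higher in 9 of 30 and lower in 3. All genes had shares of 5.69% and 4.23%, and the median of the list was 0.40. In all 9, FCC lay farther from the other zones than FZ did. Adamts4, an aggrecanase, was at 1.24 in FZ, 0.32 in PZ, 0.00 in MZ, −0.40 in HZ and −1.67 in FCC. Mmp14, a membrane-bound collagenase, was 2.44 higher in the first probe set and 0.68 in the second. The lower members were Timp4 (−2.44) and Reck (−1.22), which are inhibitors, and Mmp3 (−2.37), and FCC was the high array for each. Of 38 genes of glycosaminoglycan synthesis, 5 were lower and 2 higher, and Csgalnact1, which starts chondroitin chains, differed by −4.25 and −3.81. Extl1, a heparan sulfate enzyme, differed by −4.62 and −3.08. Chst5, a sulfotransferase outside that list, was 3.34 and 3.29 higher in FZ.

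Channels and sensors included 4 of 25 genes lower in FZ, all by at least 2, and 2 higher. Casr, the calcium-sensing receptor, was at 0.22 in FZ, 0.00 in PZ, −2.33 in MZ, −1.82 in HZ and 3.59 in FCC. Trpv4, a channel that responds to osmotic and mechanical load in chondrocytes, differed by −2.49 and Mcoln2, a lysosomal channel, by −4.72. The mechanosensitive channels Piezo1 and Piezo2 differed by 0.27 and −0.24. Of 18 S100 and calpain genes, 7 were higher and 2 lower. S100a6 was at 1.91 in FZ, 0.85 in PZ, −0.03 in MZ, −0.57 in HZ and 0.00 in FCC, and S100b, a cartilage member, differed by −1.86. Of the prostaglandin genes, Ptgds, a prostaglandin D synthase, differed by −5.62, and Ptgis, the prostacyclin synthase, by 1.43. Slc6a4, the serotonin transporter, was at 2.44 in FZ, 0.60 in PZ, 0.00 in MZ, −0.94 in HZ and −1.77 in FCC. Agtr2, an angiotensin receptor, differed by −5.77 in 1 probe set and by 0.00 in the other.

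Ribosomal proteins were higher in 0 of 35 and lower in 0, with a median of −0.03, and 0 of 9 reference genes differed by 1. Oxidative phosphorylation was at least 1 higher in 4 of 59 and lower in 0, with a median of 0.44. After the shift 36 of 59 are higher, against 24.3% of all genes, with a median of 1.09. Of 31 glycolysis and hypoxia genes, 4 were lower, Adm, Hif1a, Slc2a1 and Bnip3, at −1.07 to −1.66, and Car9 was 1.71 higher. The endoplasmic reticulum list had 3 of 28 higher and 0 lower, and interferon and MHC genes had 0 higher, with 1 of 27 and 0 of 12 lower.

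Markers of cells that the capture could include were placed as follows. Of 18 red cell genes, 1 was at least 1 lower and 0 higher, with a median difference of −0.60. This median becomes 0.04 after the shift, against 0.66 over all genes. Hbb was at −0.75 in FZ, −1.70 in PZ, 0.01 in MZ, 0.27 in HZ and 0.00 in FCC. Macrophage genes were higher in 3 of 17, osteoclast genes in 4 of 8, lymphocyte genes in 3 of 14 and endothelial genes in 2 of 18, against 5.69% of all genes, platelet, neutrophil, osteoblast and adipocyte genes in 1 each pericyte genes in 2 of 14 and Schwann cell genes in 0. Epithelial genes were lower in 2 of 11. Complement genes were higher in 3 of 16, and of 7 genes of the synovial lining 1 was lower, Creb5. The 4 osteoclast genes were Acp5, Itgb3, Mmp9 and Ctsk, and like the macrophage gene Cd68 (0.00 in FZ, 1.28 in HZ) their highest array was HZ. Skeletal muscle genes were inconsistent: 3 of 23 were higher and 4 lower. Myh2, a fast myosin, was at 2.70 in FZ, 0.00 in PZ, 0.69 in MZ, −0.10 in HZ and −1.06 in FCC, and Myl1 and Tnnc2 were 3.45 and 2.19 higher. Tnni2, a fast troponin, differed by −4.89 and Myh1 by −1.30, while Ttn, Neb and Mb differed by 0.02 to 0.11. In the deposited values the medians of the cell type lists lay between −0.60 and 0.80. After the shift they reach 1.44 for pan-leukocyte, 1.27 for osteoclast, 1.17 for osteoblast and 1.11 for macrophage genes, and 10 macrophage, 8 endothelial and 6 osteoblast genes are at least 1 higher, against 24.3% of all genes. The part of these cells in the results was not tested.

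**Figure D5:**
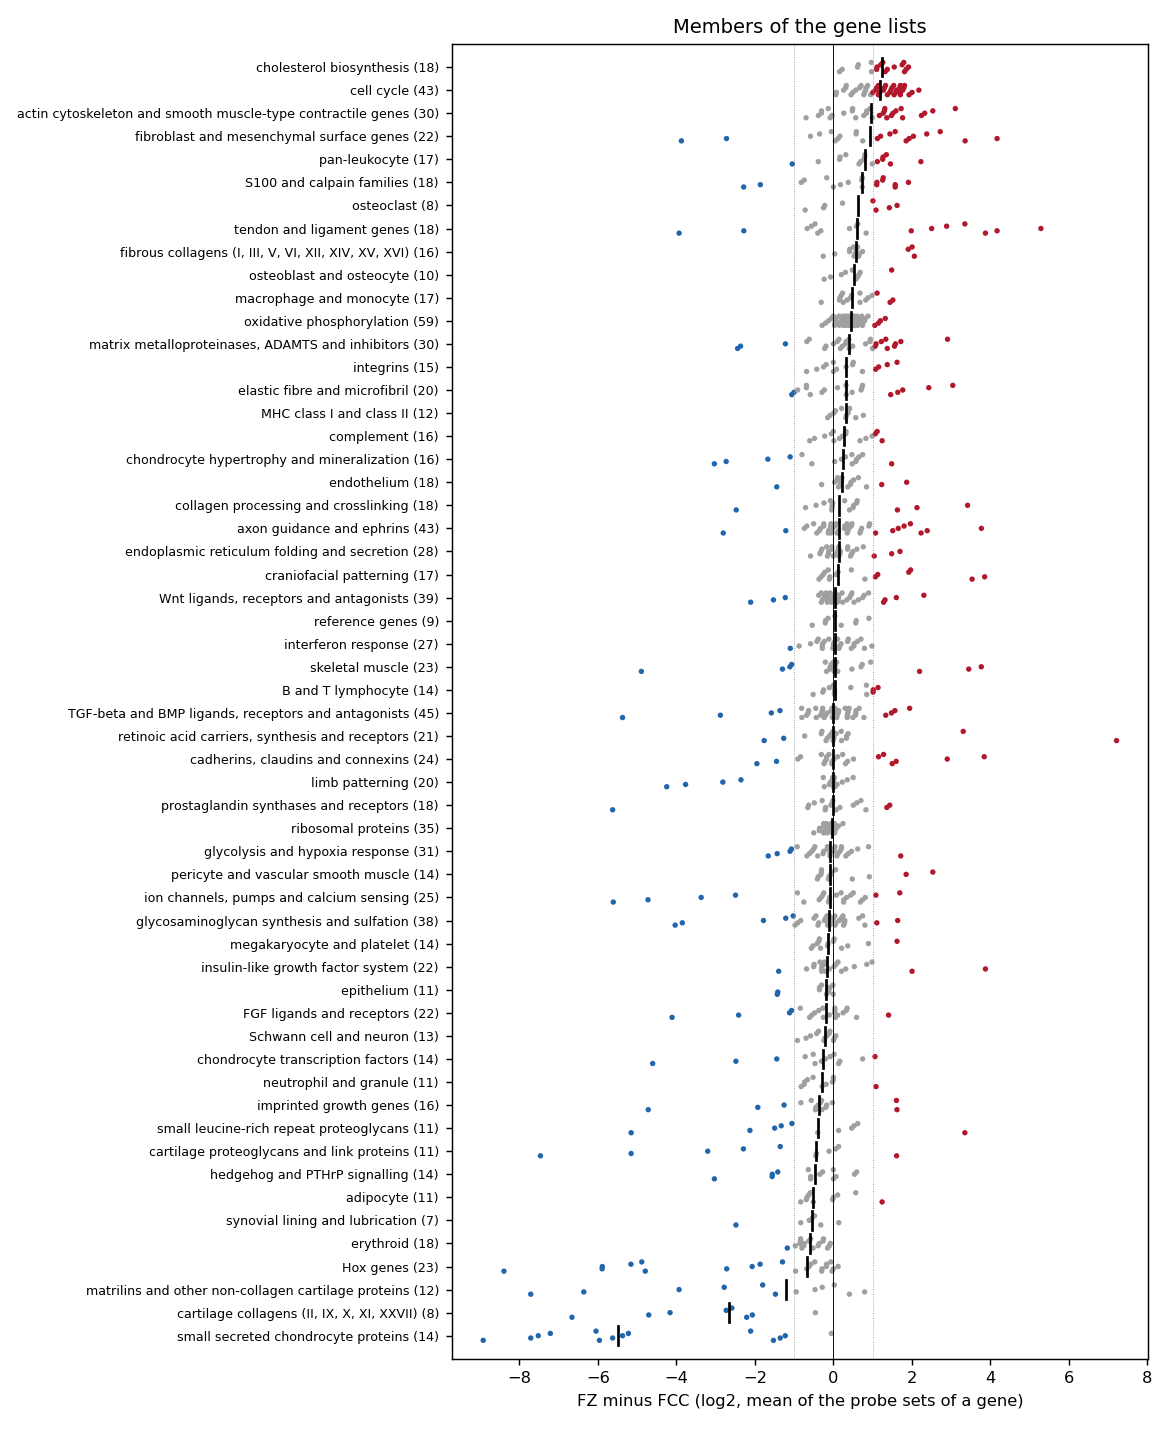
FZ minus FCC (log2, mean of the probe sets of a gene) for the members of 56 gene lists, ordered by their median (black bar), with the number of genes in brackets. Members at least 1 higher (red) or lower (blue) stand out most for cholesterol synthesis (12 of 18) and the cell cycle (27 of 43) at the top and for small secreted chondrocyte proteins (13 of 14) and cartilage collagens (7 of 8) at the bottom. The lists were written with earlier results of these data known. Adding 0.65 for the control shift would move every point right and carry medians between −0.65 and 0 past 0. The median over all genes would then be 0.66.

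Some large differences fell in genes outside these lists. Among those higher in FZ, Miat, a long non-coding RNA, was at 3.70 in FZ, 3.62 in PZ, 0.00 in MZ, −1.74 in HZ and −1.39 in FCC, and Mycn, a transcription factor of progenitors, differed by 3.72. Aqp1, a water channel, was 3.38 higher in the first probe set and 0.00 in the other, Lama2, a laminin chain, 3.56 higher, Ptn (pleiotrophin), a heparin-binding growth factor, 3.41 higher, and Mgst3, a glutathione transferase, 4.61 higher. Among those lower, Meltf, an iron-binding membrane protein, differed by −7.22, Tesc, a calcium-binding protein, by −6.17, Fbp2, a gluconeogenic enzyme, by −5.46 and Smoc1, a matricellular protein, by −6.11 and −1.89. All 4 were apart in FCC alone, Smoc1 in the first probe set.

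Agreement between probe sets was partial. Among 85 genes with a probe set at least 2 higher and at least 1 other, 65 of the 136 other probe sets (47.8%) were at least 1 higher, 54 were within 0.5 of 0, and 0 were at least 1 lower. Among 71 such genes on the lower side, 41 of 104 (39.4%) were at least 1 lower, 53 were within 0.5 of 0 and 0 were at least 1 higher. A probe set near 0 beside a large one was thus common and an opposite one of this size was not seen at all in these genes. Without a gene name were 56 of the 257 higher and 123 of the 404 lower probe sets.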

How the data were processed

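The study's methods name MAS5 for background correction and probe summarization and then, in GeneSpring GX 12, an RMA approach with quantile normalization. The authors deposited log2 values from which each probe set's median of the 5 arrays had been taken. The submitters' processing notes list RMA and MAS5 without versions. The genome build was not given in the sources used here. The study's removal of the lowest 20% of intensities was not repeated, since the values hold no levels.

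FZ minus FCC was computed for 31042 probe sets in Python 3.11.15 (pandas 2.3.3, numpy 2.4.6, and matplotlib 3.10.9 for figures). A probe set was counted at a difference of at least 2, and a list member at a mean over its probe sets of at least 1. Symbols came from the platform annotation for 20826 probe sets, of which 20763 have an Entrez ID in the RefSeq gene table. The study's gene tables named 5 more, by name only, among them Matn3, Angptl1, Hoxc9 and Hoxc10. Several symbols were given for 436 probe sets and none for 10211. Genes without a probe set under their name, among them Sox9, Runx2, Prg4 and Hmgcs1, were not analysed here.

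The named genes are the 30 highest and 30 lowest, the 15 largest of each class of arrays standing apart, and members of 56 lists. These members and lists were chosen with earlier results of these data known. Promoter sequences are those of RefSeq. The functions were tested on simulated data. The alternatives were other thresholds, centring, shifts by control probe sets, other choices of probe set for a gene, and leaving out probe sets whose suffix marks cross-hybridization.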

Additional observations from a re-analysis of the deposited data

How the results depend on the processing

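The counts of probe sets moved with the threshold and the scaling. Higher in FZ were 1743 probe sets at a threshold of 1, 810 at 1.4 and 53 at 3, and lower were 1265, 744 and 175. With 1 value per gene the counts were 119 and 215. The shift by all hybridization controls gave 886 higher and 222 lower, and a shift by the Cre controls alone, chosen after the data were seen, gave 473 higher. With a margin of 1 for standing apart, FZ alone stood apart in 57 of the higher probe sets, FCC alone in 114 and neither in 77, and on the lower side FZ alone in 20 and neither in 20. After the control shift these were 38, 106 and 740 on the higher side, and on the lower side FCC alone stood apart in 153 and neither in 61.

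The same shift raised the share of all genes at least 1 higher to 24.3% and reduced the share at least 1 lower to 2.02%. Members counted as higher rose to 11 of 18 for tendon, 9 of 20 for elastic fibre and 7 of 15 for integrins. They rose to 16 of 30 for matrix metalloproteinases, ADAMTS enzymes and inhibitors and 22 of 30 for actin. For S100 and calpain they rose to 11 of 18 and for pan-leukocyte genes to 12 of 17. Those counted as lower fell to 2 of 11 for small leucine-rich proteoglycans and 1 of 14 for hedgehog genes. With the probe set of the smallest difference for each gene, 2 integrins were higher. Leaving out suffixes that mark cross-hybridization and counting only named probe sets (chosen after the data were seen) kept the counts of probe sets within 1.5 times. Centring each array on its median could change no count, since every array already had a median of 0.00. All 60 genes with the highest or lowest differences stayed at least 2 apart after the shift. Their selection fixed this, since the smallest were 3.31 and −4.90 and the shift adds 0.65.

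No paired analysis was possible because each group has 1 array. The values hold no signal over background, so a low and an absent transcript cannot be told apart, and the number of arrays limits the precision. Disagreement among probe sets does not measure the spread between animals or between amplifications.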
